A study of Homo sapiens with 6 samples.

Results

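The 4294 regions described here were distal H3K27ac peaks that the libraries labelled MV4-11 had in both arms and the libraries labelled Kasumi-1 had in neither. They are called members below. They were chosen by presence in the peak lists: a member was a peak of the MV4-11 NC list on chromosomes 1 to 22 or X that overlapped an MV4-11 sh-ANP32B peak by at least 1 base, overlapped no peak of either Kasumi-1 list, and lay outside a window of 2500 bases on each side of the canonical transcription start site (TSS) of every protein-coding gene. The MV4-11 NC list held 24491 peaks on these chromosomes, and the 4 lists held 93160. Of the 24491 peaks, 17302 were distal and 12214 of these also had an sh-ANP32B peak. Both Kasumi-1 lists covered 7193 of the 12214, which served as the common distal set, 243 met a peak in Kasumi-1 NC alone and 484 in Kasumi-1 sh-ANP32B alone. The members were thus 24.8% of the distal MV4-11 NC peaks. The same rule with the lines exchanged gave 3058 Kasumi-1-only distal peaks.

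The mark was mapped with CUT&Tag, where a transposase tethered to the H3K27ac antibody cuts and tags the DNA around the modified histone. MV4-11 is an AML cell line with a KMT2A fusion, and Kasumi-1 is an AML cell line with a RUNX1::RUNX1T1 fusion. Cells of each line carried a control hairpin (NC, given as untreated in the labels) or a hairpin against ANP32B, an acidic nuclear protein (sh-ANP32B), and each of these 4 groups had 1 library. The labels do not say which ANP32B hairpin was used, replicates were merged before peaks were called, and the lists give positions without height, so the depth is unknown. No spread between replicates exists. Intervals below are 95% intervals over peaks or genes, cover counting error in these libraries only, and are not tests between cultures. The line and its libraries cannot be told apart. Markers of the lines did not all follow the labels: HOXA9, a gene that KMT2A fusions keep active, had 769 and 659 bases under promoter peaks in MV4-11 NC and sh-ANP32B against 4335 and 4707 in the Kasumi-1 libraries. RUNX1T1, POU4F1 and KIT, genes tied to the Kasumi-1 fusion class, had no promoter peak in any list. Of the 6 listed genes of that class, 2, CD34 and UBASH3B, had a promoter peak in both Kasumi-1 lists and neither MV4-11 list. At CD34 only 180 and 132 bases of these peaks lay in the promoter window in Kasumi-1 NC and sh-ANP32B, against 2099 and 1666 at UBASH3B. LYZ, which encodes the lysozyme of monocytes and granulocytes, had 683 and 324 promoter bases in the MV4-11 libraries and 0 in both Kasumi-1 lists. ITGAM, another monocyte marker, had 0 in both MV4-11 lists and 885 and 870 in the Kasumi-1 libraries. Of 30 monocyte and macrophage markers, 4 had a promoter peak in both lists of MV4-11 alone and 4 in both lists of Kasumi-1 alone. ANP32B itself had 3433 and 2631 promoter bases in MV4-11 NC and sh-ANP32B and 3447 and 3432 in the Kasumi-1 pair, which does not measure its RNA, so the knockdown was not checked here. The line names below are those of the labels.

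Acetylation of histone H3 at lysine 27 is laid down by the coactivators CBP and p300 and marks active promoters and enhancers, and distal sites with this mark differ more between cell types than promoters do. In myeloid cells many such sites are bound by PU.1 (an ETS factor), C/EBP factors, RUNX1 and AP-1. AP-1 is a dimer of FOS and JUN family proteins that acts downstream of growth factor and stress signalling, and C/EBP factors drive granulocyte and monocyte genes. HOXA proteins, with their PBX partners, are the known effectors of KMT2A fusions.

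The letters under the members carried the clearest difference from the other sets, so examples are given first. The following 41-base stretches, all from hg38 and on the plus strand, are shown because each holds the AP-1 core TGAGTCA, or TGACTCA on the other strand, in capitals. Each came from the widest member with this core that was nearest to a gene described below, and the genes were picked after their values had been seen. The stretch for ZEB2 was chr2:144694662-144694702, that for CXCL8 chr4:73704693-73704733, for TNFAIP3 chr6:137811574-137811614, for FNDC3B chr3:172076066-172076106, for PTGER4 chr5:40365253-40365293, for DUSP6 chr12:89391431-89391471, for SPRY2 chr13:80469948-80469988 and for RUNX1 chr21:34983879-34983919. The FNDC3B and RUNX1 stretches were intronic, those for ZEB2 and DUSP6 lay in lncRNA genes and the other stretches were intergenic.
ZEB2: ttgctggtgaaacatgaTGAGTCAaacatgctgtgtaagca
CXCL8: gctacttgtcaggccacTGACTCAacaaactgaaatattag
TNFAIP3: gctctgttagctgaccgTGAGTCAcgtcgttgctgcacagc
FNDC3B: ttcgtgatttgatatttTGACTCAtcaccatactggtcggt
PTGER4: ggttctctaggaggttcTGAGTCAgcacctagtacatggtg
DUSP6: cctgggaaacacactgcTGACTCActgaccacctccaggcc
SPRY2: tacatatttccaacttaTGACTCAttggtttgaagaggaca
RUNX1: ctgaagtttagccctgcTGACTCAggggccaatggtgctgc

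The members behind these stretches were 690 to 4894 bases wide in NC, and each was present in both MV4-11 libraries and absent from both Kasumi-1 lists. The ZEB2 member, 172904 bases upstream of the TSS, was 3958 bases wide in NC and 3223 in sh-ANP32B. The CXCL8 member was 1671 and 1360 bases wide and held the core 3 times. At TNFAIP3 the widths were 1289 and 1815 bases. The DUSP6 member of 690 bases lay under an sh-ANP32B peak of 3581 bases that also met another NC peak, so these widths do not compare 1 region. The ZEB2 member was split between 2 sh-ANP32B peaks. The nearest Kasumi-1 peak was 928 bases from the ZEB2 member and 53915 bases from the TNFAIP3 member.

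A second group of sequences shows the central 300 bases of wide members that held the 3 motifs with the highest ratio of the members' share to the Kasumi-1-only share, HOX-PBX (2.55 times), AP-1 (2.16 times) and C/EBP (1.88 times), and of the member with the most different motifs. They are from hg38, plus strand, with the motif in capitals. The HOX-PBX letters searched were TGATTNAT, the AP-1 letters TGANTCA and the C/EBP letters TTGCNNAA, on both strands. The FANCL sequence (chr2:59236605-59236904) lay in a lncRNA gene at -995429 bases from the FANCL start (negative values are upstream), and the XCL2 sequence (chr1:168504241-168504540) was intergenic. The XCL2 match TGATTCAT also contains the AP-1 letters.
FANCL: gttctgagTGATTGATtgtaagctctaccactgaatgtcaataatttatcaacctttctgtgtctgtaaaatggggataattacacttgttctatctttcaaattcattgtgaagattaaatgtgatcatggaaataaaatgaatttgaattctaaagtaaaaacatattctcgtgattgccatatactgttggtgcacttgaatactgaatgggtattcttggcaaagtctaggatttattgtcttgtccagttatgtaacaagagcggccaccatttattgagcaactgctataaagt
XCL2: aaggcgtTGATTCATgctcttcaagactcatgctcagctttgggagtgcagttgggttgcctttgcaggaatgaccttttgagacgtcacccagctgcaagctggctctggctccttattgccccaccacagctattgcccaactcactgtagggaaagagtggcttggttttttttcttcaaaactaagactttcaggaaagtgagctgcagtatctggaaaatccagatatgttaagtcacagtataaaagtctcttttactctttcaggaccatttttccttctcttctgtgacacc

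For AP-1, the CXCR4 sequence (chr2:136214588-136214887) was intergenic, at -96588 bases from the gene's start, and the TGIF1 sequence (chr18:3604517-3604816) lay in an intron of DLGAP1. For C/EBP, the FNDC3B sequence (chr3:172073900-172074199) was intronic in that gene, and the KCND2 sequence (chr7:120054262-120054561) was intergenic.
CXCR4: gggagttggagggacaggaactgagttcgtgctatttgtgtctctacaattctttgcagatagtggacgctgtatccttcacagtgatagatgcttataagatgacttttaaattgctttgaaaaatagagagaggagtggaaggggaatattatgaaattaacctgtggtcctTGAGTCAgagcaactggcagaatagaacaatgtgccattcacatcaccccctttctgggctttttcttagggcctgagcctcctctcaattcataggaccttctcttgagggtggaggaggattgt
TGIF1: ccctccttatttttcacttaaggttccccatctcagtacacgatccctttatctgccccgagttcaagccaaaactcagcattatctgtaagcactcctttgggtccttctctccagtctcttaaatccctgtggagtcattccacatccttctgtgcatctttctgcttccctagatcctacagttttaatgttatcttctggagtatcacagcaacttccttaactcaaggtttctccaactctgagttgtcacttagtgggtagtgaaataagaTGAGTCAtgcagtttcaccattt
FNDC3B: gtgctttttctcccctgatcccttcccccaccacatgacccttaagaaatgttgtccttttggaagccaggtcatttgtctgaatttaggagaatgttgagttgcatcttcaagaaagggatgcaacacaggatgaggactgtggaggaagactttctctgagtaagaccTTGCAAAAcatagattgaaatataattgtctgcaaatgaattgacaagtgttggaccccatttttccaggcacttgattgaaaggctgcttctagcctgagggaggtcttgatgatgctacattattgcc
KCND2: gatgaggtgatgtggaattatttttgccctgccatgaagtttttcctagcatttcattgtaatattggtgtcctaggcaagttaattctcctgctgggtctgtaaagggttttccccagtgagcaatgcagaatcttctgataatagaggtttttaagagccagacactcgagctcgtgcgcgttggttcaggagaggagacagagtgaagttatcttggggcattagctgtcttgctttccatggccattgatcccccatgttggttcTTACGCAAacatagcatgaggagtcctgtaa

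The SLC39A10 sequence (chr2:195487149-195487448), in a lncRNA gene at -169928 bases from the SLC39A10 start, held 6 of the 15 motifs searched, which were C/EBP, AP-1, GATA, MYB, the E-protein E-box and the interferon response (IRF) motif. All 6 are in capitals.
SLC39A10: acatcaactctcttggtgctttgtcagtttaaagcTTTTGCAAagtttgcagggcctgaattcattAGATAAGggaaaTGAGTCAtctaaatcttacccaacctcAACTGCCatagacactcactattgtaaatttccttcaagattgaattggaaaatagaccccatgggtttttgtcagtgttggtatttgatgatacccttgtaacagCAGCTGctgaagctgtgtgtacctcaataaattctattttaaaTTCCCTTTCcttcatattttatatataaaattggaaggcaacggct

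The members were poor in G and C. Their median GC content was 41.8% (quartiles 38.6% and 45.7%), compared with 52.8% in the Kasumi-1-only distal peaks and 51.2% in the common distal peaks. A GC content of at least 50% was found in 534 members (12.4%), in 76.5% of the Kasumi-1-only peaks and in 57.1% of the common peaks. The difference was -64.1 percentage points (95% interval -65.8 to -62.2) against the Kasumi-1-only set and -44.7 points (-46.2 to -43.1) against the common set, and the members had the lower share on 23 of 23 chromosomes in both comparisons. The lists differed in the same direction as a whole: the median GC content of all distal peaks was 47.5% (NC) and 47.9% (sh-ANP32B) for MV4-11, and 52.4% and 52.0% for Kasumi-1. The part of this shift between libraries in the members' GC content was not tested.

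**Figure D1:**
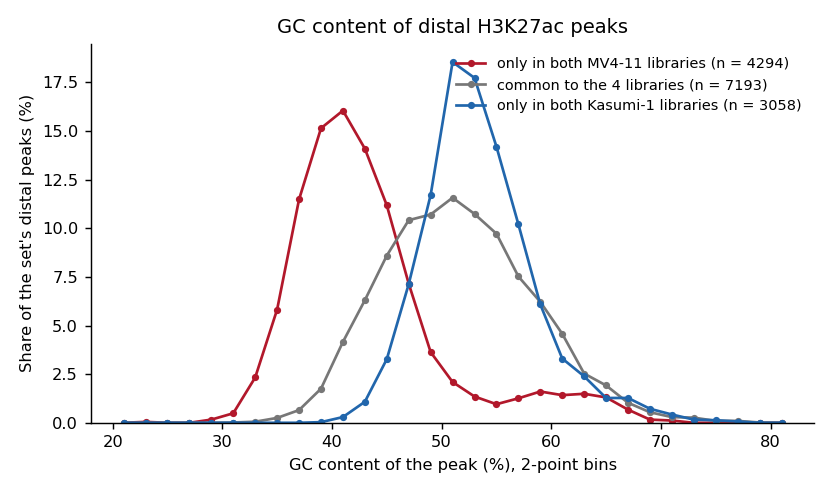
GC content of distal peaks in percent (x axis, 2-point bins) against the share of each set in percent (y axis), for the 4294 members, the 7193 common distal peaks and the 3058 Kasumi-1-only distal peaks. The members peak near 41%, the other sets near 51%, and the members have a low second rise near 60%.

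To place windows on 1 scale, the central 600 bases of every distal peak of both NC lists were divided into GC quintiles. The poorest quintile, below 43.3% GC, held 2605 members (60.7%) but 69 Kasumi-1-only peaks (2.26%). In the Kasumi-1 lists few distal peaks of any kind fell there, 500 (3.66%) in NC and 672 (4.53%) in sh-ANP32B, against 5531 (32.0%) and 4808 (29.8%) in MV4-11 NC and sh-ANP32B. Of the 3868 distal peaks that both MV4-11 libraries had in this quintile, 67.3% were members. The share was 6.54% in the fourth quintile and 14.4% in the richest one. The 309 members of the richest quintile made up the low second rise in the plot of GC content. They were narrower (median 558 against 801 bases in the poorest quintile), more often intronic (65.4% against 53.0%) and nearer to a TSS (median 27326 against 48716 bases).

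The members lay farther from canonical TSSs than the other sets. Their median distance to the nearest canonical TSS was 43649.5 bases (quartiles 17583.5 and 113446), against 26837.5 bases for the Kasumi-1-only peaks and 29422 for the common peaks. More than 100000 bases separated 1191 members (27.7%) from the nearest TSS, which was 12.3 points (10.5 to 14.2) above the Kasumi-1-only share of 15.4% and 11.2 points (9.65 to 12.8) above the common share of 16.5%. At the GC mix of the members' windows the differences were 9.39 points (3.42 to 15.4) and 7.61 points (5.50 to 9.71). By annotation of the centre, 2330 members (54.3%) lay in introns of protein-coding genes, 1151 (26.8%) between genes, 603 (14.0%) in lncRNA genes, 164 (3.82%) in UTRs or noncoding exons and 46 (1.07%) in coding exons. The intronic share was 4.88 points (2.57 to 7.19) above the Kasumi-1-only share, but this was -1.23 points (-8.35 to 5.89) at the members' GC mix. Against the common share it differed by -0.79 points, with an interval of -2.67 to 1.09, and the difference was -2.64 points at the members' GC (-5.09 to -0.19). A total of 1034 members (24.1%) came within 2500 bases of a TSS of some other GENCODE transcript, a difference of -6.01 points from the common set at the members' GC (-8.19 to -3.83), so they were distal to the canonical starts of protein-coding genes but not to every annotated start.

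Member density differed between chromosomes. On chromosome 13 members made up 203 of 493 distal MV4-11 NC peaks (41.2%), the highest share, with a median GC content of 39.8%. On chromosomes 22 and 19 they were 45 of 465 (9.68%) and 66 of 654 (10.1%), with median GC contents of 47.5% and 50.4%. The corresponding Kasumi-1-only shares were 22.5%, 94 of 427 peaks and 27.1%. Most members stood alone: with gaps of up to 12.5 kb joined, they formed 3581 clusters, of which 3070 held a single member and 40 held at least 4. The largest cluster had 14 members over 57.0 kb at CCDC200 on chromosome 17. Clusters of 8 lay at CD69, an early activation antigen of leukocytes, over 47.0 kb on chromosome 12, beside PTTG1IP on chromosome 21, most of it inside ITGB2, and at RFLNA on chromosome 12. ITGB2, the integrin beta chain shared by the leukocyte integrins, contained 8 members, 6 common distal peaks and no Kasumi-1-only peak within its 46.0 kb.

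Among 15 motifs searched in the central 600 bases, C/EBP and AP-1 were the most frequent in the members. A C/EBP match was present in 40.8% of the members' windows, 21.7% of the Kasumi-1-only windows, 29.7% of the common windows and 28.8% of the windows of all distal peaks of both NC lists. An AP-1 match was present in 1522 members (35.4%), 16.4% of the Kasumi-1-only windows, 26.1% of the common windows and 23.9% of all distal windows. Both differences from the Kasumi-1-only set were large, 19.2 points (17.1 to 21.2) for C/EBP and 19.1 points (17.1 to 21.0) for AP-1, and both motifs were more frequent in the members on 23 of 23 chromosomes.

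Other myeloid motifs were less frequent but pointed the same way in the uncorrected shares. The RUNX letters TGTGGTT were found in 18.5% of the members, 10.8% of the Kasumi-1-only windows, 15.5% of the common windows and 14.2% of all distal windows. For the PU.1 letters GAGGAAGT the shares were 10.1%, 5.66%, 9.84% and 8.21%. The HOX-PBX letters gave 10.5%, 4.12%, 5.55% and 5.97%. For the interferon response letters GAAANNGAA the shares were 23.8%, 15.2%, 18.2% and 17.9%. The STAT letters TTCNNNGAA gave 18.6%, 12.4%, 16.0% and 14.8%, and the GATA letters AGATAAG gave 9.36%, 5.79%, 6.16% and 6.43%. The GC box GGGCGG of SP and KLF factors was rare in the members at 6.94%, against 27.8%, 23.6% and 21.4%. The E-box of MYC, CACGTG, was found in 6.89% of the members, 11.7% of the Kasumi-1-only windows, 12.7% of the common windows and 10.8% of all distal windows. For the E-protein letters CAGCTG the shares were 25.2%, 34.6%, 34.5% and 31.8%. The ETS letters CCGGAAGT of GABPA were found in 19 members (0.44%), against 1.18%, 1.36% and 1.05%. MYB (AACNGCC), MEIS (TGACAGC) and NF-kappaB (GGANTTTCC) differed from the Kasumi-1-only set by 0.25, -0.90 and 0.60 points, with intervals that held 0. Their shares in the members were 20.1%, 8.55% and 3.05%, in the common windows 22.99%, 10.6% and 2.72%, and in all distal windows 20.9%, 9.79% and 2.66%. Against the common set MYB differed by -2.90 points (-4.43 to -1.34) and MEIS by -2.02 points (-3.10 to -0.91). Matches of different motifs overlapped most often for AP-1 and HOX-PBX, in 155 member windows (3.61%), because TGATTCAT holds both.

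**Figure D2:**
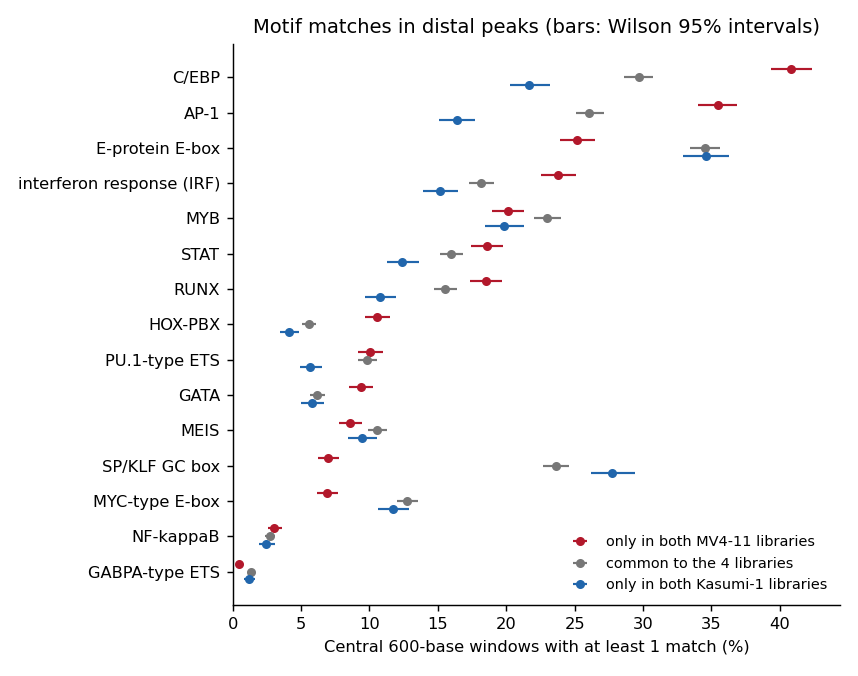
Share of central 600-base windows with at least 1 match (x axis, percent) for 15 motifs (y axis), with Wilson 95% intervals. Points are the 4294 members, the 7193 common and the 3058 Kasumi-1-only distal peaks. C/EBP and AP-1 stand highest in the members, at 40.8% and 35.4%, and the SP/KLF GC box is lower in the members, at 6.94%, than in both other sets.

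Because motifs rich in A and T are more frequent in windows poor in GC, the shares were also compared at the GC mix of the members. Against the common distal peaks, 3 motifs then differed with an interval that excluded 0. AP-1 was 9.30 points (7.07 to 11.5) higher in the members, with a higher share in 3 of 5 quintiles, HOX-PBX 2.398 points (0.93 to 3.86) higher, with a higher share in 2 of 5 quintiles, and the SP/KLF GC box differed by -4.48 points (-5.68 to -3.27). C/EBP differed by 1.15 points (-1.27 to 3.58), RUNX by 0.62 points (-1.32 to 2.56) and PU.1 by 1.35 points (-0.06 to 2.77). HOX-PBX matches that did not overlap an AP-1 match were found in 310 members (7.22%) and 3.35% of the common windows, a difference of 1.93 points (0.70 to 3.16) at the members' GC. Against the Kasumi-1-only set the correction rested on only 69 windows in the poorest quintile. In this comparison AP-1 was 17.9 points (12.1 to 23.8) higher in the members and was higher in all 5 quintiles. C/EBP was 14.5 points (7.92 to 21.0) higher, but in only 3 of 5 quintiles. In the richest quintile C/EBP was found in 9.39% of the members and 14.2% of the Kasumi-1-only windows (-4.78 points, -8.85 to -0.24). RUNX was 8.23 points (3.46 to 13.0) and PU.1 4.40 points (0.44 to 8.36) higher in the members over all quintiles. MYB was 7.09 points (2.29 to 11.9), STAT 7.59 points (2.81 to 12.4) and MEIS 5.64 points (3.17 to 8.12) higher, so that MEIS turned its sign. The SP/KLF GC box differed by -11.3 points (-16.4 to -6.23). The difference for HOX-PBX was 3.47 points with an interval of -1.001 to 7.94.

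The AP-1 difference was larger for 1 of the 2 letter pairs that the motif allows. The core TGAGTCA was found in 1172 members (27.3%), 20.6% of the common windows and 11.6% of the Kasumi-1-only windows, and at the members' GC it was 8.28 points (6.26 to 10.3) above the common set and 17.8 points (13.2 to 22.4) above the Kasumi-1-only set. The variant TGAATCA was found in 11.9%, 7.26% and 5.30%, with differences at the members' GC of 2.61 points (1.08 to 4.15) and 2.02 points (-3.08 to 7.12). Most AP-1 windows held 1 match (1161 members), while 300 held 2 and 61 held 3 or more. AP-1 was found about equally in narrow and wide members, in 35.9% of the narrowest and 32.8% of the widest quintile, and in 34.3% of intronic and 37.6% of intergenic members. It was less frequent in GC-rich members, at 36.5% in the poorest GC quintile and 17.5% in the richest. In counts not matched for GC, several of these motifs met in 1 window more often in the members: 2 of the 4 motifs C/EBP, AP-1, RUNX and PU.1 were present in 1004 members (23.4%), 16.3% of the common and 8.67% of the Kasumi-1-only windows, and none of the 4 in 28.4%, 39.6% and 55.9%. Only 11 members held all 4.

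Matches were also counted by distance from the peak centre. The outer bins lay more than 700 bases from the centre, which is outside most members (upper quartile of width 1089 bases) but inside many common peaks (upper quartile 2104), so the ratios below set peak against flank and depend on width. In the members, AP-1 matches averaged 78.1 per 1000 peaks in each 100-base bin of the central 600 bases and 33.3 in the outer bins, a ratio of 2.35. The ratio was 1.67 in the common peaks and 1.04 in the Kasumi-1-only peaks. C/EBP matches had a ratio of 1.58 in the members, 1.29 in the common peaks and 0.84 in the Kasumi-1-only peaks. The SP/KLF GC box had the reverse order, 0.83 in the members and 2.32 in the Kasumi-1-only peaks. Peak centres are the middle of each listed interval, since the lists give no summit.

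**Figure D3:**
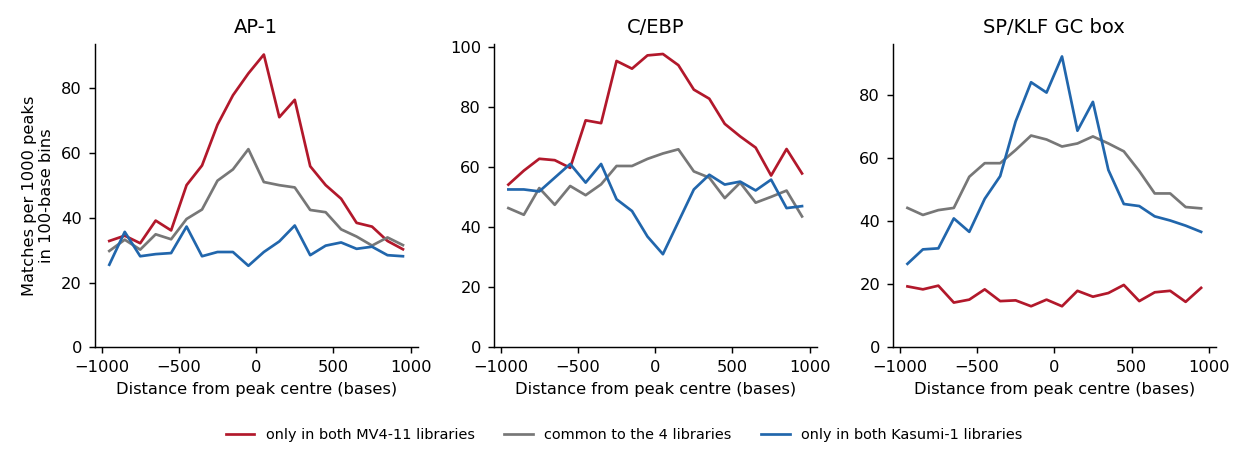
Matches per 1000 peaks in 100-base bins (y axis) by distance from the peak centre in bases (x axis), for AP-1, C/EBP and the SP/KLF GC box in 3 sets. AP-1 and C/EBP rise towards the centre of the members, the AP-1 line of the Kasumi-1-only peaks is flat, and the GC box rises in the Kasumi-1-only peaks alone among the 2 line-specific sets.

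The knockdown comparison asked what became of the members in sh-ANP32B. Because the rule required a peak in both MV4-11 lists, widths are a description. Of the 4294 members, 3954 matched exactly 1 sh-ANP32B peak that matched no other, and 105 were split into several sh-ANP32B peaks. The median width was 719.5 bases in NC and 685 in sh-ANP32B, a median log2 ratio of -0.05 (-0.06 to -0.02), and 2101 (53.1%) were narrower. By 1.5-fold or more, 773 members (19.5%) were narrower, against 22.3% of all matched MV4-11 NC peaks, and 597 (15.1%) were wider, against 8.54% of all. These shares come from lists that the rule used and are given without a reading. The common distal peaks had a median log2 ratio of -0.12, and 62.7% of them were narrower. The change went with the starting width: the narrowest quintile of members had a median log2 ratio of 0.39 and the widest -0.18.

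MV4-11-only distal peaks that were not in both libraries gave a comparison that the rule did not set, since it did not use sequence. In the NC list, 2974 distal peaks had neither an sh-ANP32B nor a Kasumi-1 peak, and in the sh-ANP32B list 2466 had neither an NC nor a Kasumi-1 peak. AP-1 was found in 672 of the 2974 NC-alone peaks (22.6%), in 35.4% of the members and in 881 of the 2466 sh-ANP32B-alone peaks (35.7%). The members were 12.8 points (10.8 to 14.9) above the NC-alone peaks and -0.28 points (-2.66 to 2.08) from the sh-ANP32B-alone peaks. At the members' GC these differences were 11.0 points (8.81 to 13.2) and -1.95 points (-4.53 to 0.62). The NC-alone peaks were narrower than the members, with a median of 429 bases against 721, and the sh-ANP32B-alone peaks were narrower still at 401 bases. Among peaks of 400 to 700 bases the AP-1 shares were 22.8% of NC-alone peaks, 36.4% of members and 37.4% of sh-ANP32B-alone peaks. Wider peaks were more often members: 462 of the 1469 narrowest (289 to 372 bases) and 1327 of the 1453 widest (972 to 5333 bases) MV4-11-only distal NC peaks had an sh-ANP32B peak. Overlap with an sh-ANP32B peak was part of the rule, so these counts by width are a description.

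Within the members, the AP-1 share rose with the width in sh-ANP32B relative to NC. It was 28.6% (25.5% to 31.9%) in members narrower by 1.5-fold or more in sh-ANP32B, 36.8% (35.0% to 38.7%) in those between and 42.0% (38.1% to 46.0%) in those wider by 1.5-fold or more. The C/EBP shares in the same classes were 40.8%, 42.0% and 40.7%. These classes come from the same 2 lists as the sets above and were not matched for GC content or starting width. Of the 597 members wider by 1.5-fold or more, 296 were in the narrowest NC width quintile. Against the NC-alone peaks, C/EBP was 4.13 points (1.85 to 6.39) higher in the members but -0.63 points (-2.97 to 1.71) apart at the members' GC, and RUNX was 2.68 points higher and 1.22 points (-0.65 to 3.08) apart at that GC. At that GC, PU.1 was 1.88 points (0.49 to 3.28), the E-protein E-box 3.89 points (1.95 to 5.84) and NF-kappaB 0.87 points (0.08 to 1.66) higher in the members. In the sh-ANP32B-alone peaks the C/EBP share was 31.0%, below the members' 40.8%, whereas the AP-1 difference between these sets had an interval that held 0. In Kasumi-1, the mirrored sets gave AP-1 shares of 17.9% in the 845 NC-alone peaks, 16.4% in the 3058 peaks of both lists and 16.1% in the 1791 sh-ANP32B-alone peaks. Depth, and which library a narrow peak is called in, cannot be told apart from the knockdown with 1 library per group.

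**Figure D4:**
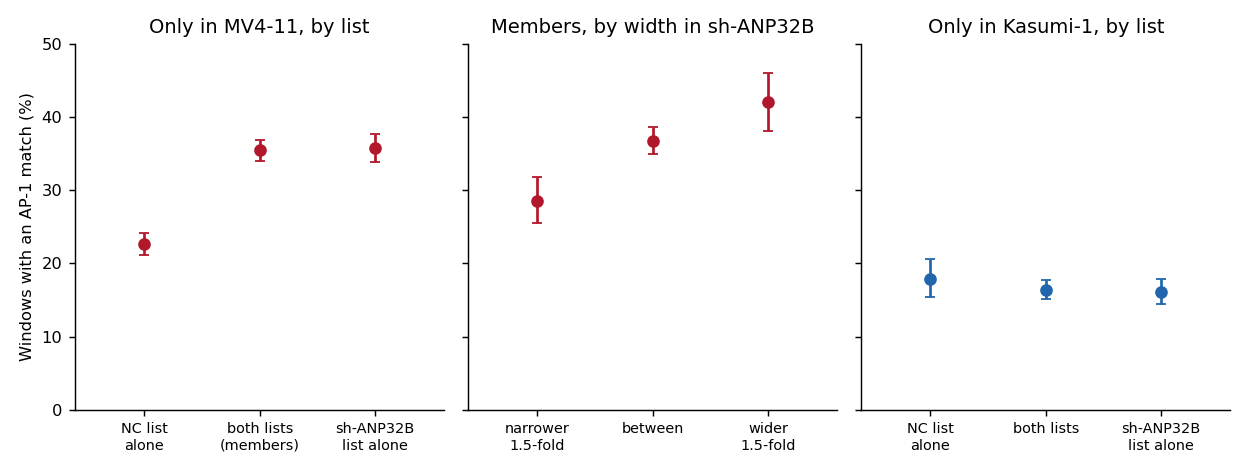
Share of central 600-base windows with an AP-1 match (y axis, percent), with Wilson 95% intervals. Left, MV4-11-only distal peaks of the NC list alone (22.6%), both lists (35.4%) and the sh-ANP32B list alone (35.7%). Middle, members by their width in sh-ANP32B relative to NC (28.6%, 36.8% and 42.0%). Right, the same sets in Kasumi-1 (17.9%, 16.4% and 16.1%).

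Each member was assigned to the protein-coding gene with the nearest canonical TSS, which names a neighbour and not a target. The members fell to 2736 genes, 13.7% of all protein-coding genes, and 1905 of these had a single member. At the other end, 163 genes with at least 4 members held 874 members (20.4%). Promoters of these genes were other peaks than the members. A promoter peak in both MV4-11 lists and neither Kasumi-1 list was present at 42 of the 2736 genes (1.54%), against 0.566% of all protein-coding genes and 15 of the 2091 genes nearest to a Kasumi-1-only peak (0.72%). The difference from the latter was 0.82 points (0.21 to 1.42), and 1.22 points (0.60 to 1.87) with the 676 genes nearest to both sets left out. Genes nearest to a common distal peak had a share of 0.91%, a difference of 0.62 points (0.08 to 1.22). Among genes with 4 or more members the share was 6 of 163 (3.68%, interval 1.70% to 7.80%). At 1048 of the 2736 (38.3%) the promoter was marked in every list, against 25.95% of all protein-coding genes. At 1023 (37.4%) it was marked in none, against 49.975% of all. A promoter peak in both Kasumi-1 lists and neither MV4-11 list was present at 226 (8.26%), more genes than the 42 of the reverse pattern. That share was 9.74% among all protein-coding genes and 11.2% among genes nearest to a Kasumi-1-only peak.

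Several of the 42 genes are known from leukocytes. They included ATP8B4, a phospholipid flippase, with 6 members, PTPRC, the leukocyte phosphatase CD45, with 5, and CYBB, the catalytic subunit of the phagocyte NADPH oxidase, with 4. CXCL8, the neutrophil chemokine interleukin-8, had 3. AQP9, an aquaglyceroporin of leukocytes, and ALOX5, which starts leukotriene synthesis, had 2 each, and the complement receptor C3AR1, the receptor TLR1, the DNA sensor AIM2 and the nuclear antigen MNDA had 1 each. Apart from those in the gene lists, these names were chosen after their values were seen, and no test of a shared function was made.

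The 25 genes with the most member bases held 211 members (4.91%), and 14 of the 25 had no Kasumi-1-only peak while 21 also had a common peak. FNDC3B, an endoplasmic reticulum membrane protein, came first with 15 members, 13 of them inside the gene, which covered 18196 bases in NC and 19985 in sh-ANP32B. PTGER4, the prostaglandin E2 receptor EP4, followed with 9 members of 17493 and 18732 bases, all 64116 to 314930 bases from its TSS and with no common or Kasumi-1-only distal peak beside them. RXRA, the retinoid X receptor, had 11 members of 13655 and 12248 bases, but also 11 common peaks. Part of these totals came from sh-ANP32B peaks that met several NC peaks. Over members matched 1 to 1, FNDC3B had 13179 bases in NC and 11513 in sh-ANP32B in 10 members, so its direction turned, PTGER4 had 11546 and 12137 in 7, and RXRA had 9652 and 8712 in 10.

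CXCR4, the receptor for the chemokine CXCL12, had 8 members that covered 10635 bases in NC and 13050 in sh-ANP32B. Its widest, of 4285 bases in NC, lay with 2 other members under 1 sh-ANP32B peak of 7650 bases, and over the 5 members matched 1 to 1 the bases were 4131 and 5400. CD44, the hyaluronan receptor, had 6 members of 9271 and 9824 bases, all matched 1 to 1. THBS1, the matrix protein thrombospondin, had 11 members of 11374 and 14166 bases, all matched 1 to 1 and 8 of them wider in sh-ANP32B, while its promoter had no peak in any list. Over members matched 1 to 1, the THBS1 gain of 2792 bases was the largest gain of the 25 genes, and the largest loss was at DAOA, from 8462 to 5564 bases in 7 members. ATP8B4 had the widest member, an intronic peak on chromosome 15 at 50063440 to 50068772 of 5333 bases in NC and 4673 in sh-ANP32B.

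ZEB2, a zinc finger factor of myeloid and lymphoid cells, had 11 members of 13152 bases in NC and 11172 in sh-ANP32B, up to 637794 bases from its TSS, and no Kasumi-1-only peak. Its promoter had peaks in all lists, of 4346 and 4597 bases in the MV4-11 libraries and 1108 and 1145 in the Kasumi-1 libraries. ELF1, an ETS factor, had 4 intronic members of 10873 and 9152 bases, the widest of them 5089 and 4898 bases in NC. The 2 widest were not matched 1 to 1, and the other members had 886 and 1522 bases, so the direction turned. Its promoter had 1738 and 1901 bases in MV4-11 against 0 and 83 in Kasumi-1. RUNX1 had 6 members of 7769 and 6872 bases beside 10 common and 4 Kasumi-1-only peaks. Inside the gene, by whatever TSS was nearest, lay 13 members, 15 common and 5 Kasumi-1-only distal peaks. IRF2BP2, a transcriptional corepressor, had 10 members that covered 9342 bases in NC and 14472 in sh-ANP32B, but 6593 and 7042 over the 7 matched 1 to 1. MBNL1, a splicing regulator and a known KMT2A fusion target, had 12 members of 12668 and 12288 bases, or 10570 and 10777 over the 11 matched 1 to 1, which turned the direction, and no Kasumi-1-only peak. SRGAP2C and CCDC200 lie in duplicated sequence, where reads can be shared between copies, and their 9 and 15 members are uncertain.

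**Figure D5:**
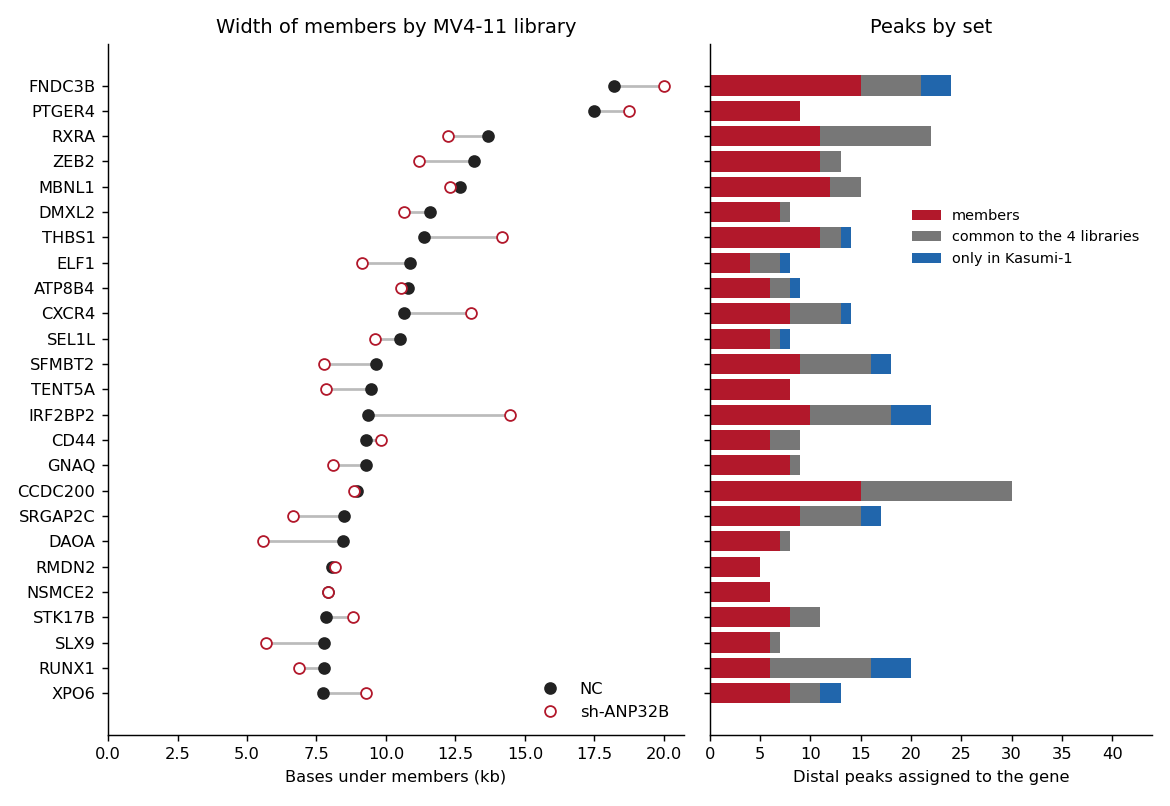
The 25 genes with the most member bases by nearest TSS. Left, bases under members in kb in MV4-11 NC (filled) and sh-ANP32B (open). Right, numbers of members, common and Kasumi-1-only distal peaks assigned to each gene. FNDC3B leads with 18.2 kb in NC, the longest line, at IRF2BP2, includes sh-ANP32B peaks that met several NC peaks, and 14 genes have no Kasumi-1-only peak.

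In all, 12 lists of genes were counted, each against the background of 13.7% of protein-coding genes with a member and 10.5% with a Kasumi-1-only peak. Of 22 myeloid transcription factors, 11 (50%, interval 30.7% to 69.3%) had 31 members and 11 had 26 Kasumi-1-only peaks. Among the AP-1 subunits in this list, FOS had 2 members of 908 bases in NC and 2104 in sh-ANP32B. FOSL2 went the other way, with 1 member of 554 bases in NC and 510 in sh-ANP32B, and JUNB had no member. Of 17 KMT2A fusion targets, 7 (41.2%) had 30 members and 6 had 11 Kasumi-1-only peaks. ZEB2 and MBNL1 held 23 of the 30, MEF2C had 2 and FLT3, CDK6 and SUPT3H had 1 each. MYB had 2. HOXA5, HOXA7, HOXA9, HOXA10 and MEIS1 had none. Of 16 stem and progenitor factors, 5 (31.3%) had 16 members, of which ETV6 held 6 and the ETS factor FLI1 held 4, and 7 had 12 Kasumi-1-only peaks.

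Of 30 monocyte and macrophage markers, 11 (36.7%, interval 21.9% to 54.5%) had 17 members, and 7 (23.3%) had 13 Kasumi-1-only peaks. TLR4, the lipopolysaccharide receptor, had 3 members of 7116 bases in NC and 7140 in sh-ANP32B, 14060 to 20341 bases from its TSS, with no common or Kasumi-1-only distal peak. Its promoter had 2951 and 2917 bases in MV4-11 and 535 and 522 in Kasumi-1. The Fc receptor FCGR3A had 2 members of 2532 and 2762 bases, and TLR2 had 2 of 3041 and 3428 bases. The TLR2 promoter had 611 bases in MV4-11 NC and 0 in sh-ANP32B. FCGR1A, CCR2 and MS4A7 also had more member bases in sh-ANP32B than in NC. Fewer were found for CD36 (1560 and 1075), CX3CR1 (1050 and 812), VCAN (1395 and 1270), CD86 (1283 and 1221) and MNDA (450 and 436). CD14, CSF1R and ITGAM, which define monocytes, had no member. Among markers of other lineages, a member was nearest to 1 of 16 neutrophil granule genes (BPI, 6.25%), 2 of 8 B cell genes (MS4A1 and EBF1, 25%, interval 7.15% to 59.1%), 1 of 9 T cell genes (BCL11B, 11.1%) and 0 of 12 erythroid and megakaryocyte genes, which allows a share of up to 24.2% by the Wilson interval. Kasumi-1-only peaks were nearest to 2, 2, 2 and 1 genes of these lists. Of 6 genes tied to RUNX1::RUNX1T1 lines, 3 had members, POU4F1 with 3 and KIT and CD34 with 1 each, and 3 had 7 Kasumi-1-only peaks.

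Of 10 feedback inhibitors and targets of ERK, the kinase downstream of growth factor receptors, 7 (70%, interval 39.7% to 89.2%) had 19 members, and 5 had 7 Kasumi-1-only peaks. SPRY2 had 7 members of 4491 bases in NC and 4948 in sh-ANP32B, and DUSP6, the ERK phosphatase, had 5 of 3575 and 7406 bases, or 2885 and 3825 over the 4 matched 1 to 1. The remaining ERK genes with members had fewer bases in sh-ANP32B than in NC. The values were 1857 and 852 for DUSP5, 2067 and 1819 for SPRY1, and 1446 and 1159 for SPRED2. ETV4 had 817 and 692 bases and ETV5 had 381 and 314. Of 13 NF-kappaB and inflammatory genes, 6 (46.2%) had 14 members and 4 had 4 Kasumi-1-only peaks. TNFAIP3, the NF-kappaB inhibitor A20, held 7 members of 7472 and 9202 bases. CXCL8 held 3 of 3801 and 3031 bases, and its promoter had 2306 and 2343 bases in MV4-11 and none in Kasumi-1. Of the 11 genes that the study displayed or followed, ANP32A and MYC had 1 member each, and the MYC member lay 514602 bases from its TSS with widths of 697 and 1286 bases. The MYC promoter went the other way, with 893 bases in MV4-11 NC and 0 in sh-ANP32B. In the Kasumi-1 pair it had 3828 and 3843 bases.

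Members also entered the broadest domains of the MV4-11 NC library. Joining neighbouring peaks across gaps of up to 12.5 kb, after setting aside those that lay entirely within promoter windows, gave 9978 domains, and the 500 with the most bases contained 508 members (11.8%) and 25.1% of the common distal peaks. Of these 500 domains, 234 had at least 1 member. In 16 domains members made up at least 50% of the bases, and the domains nearest to RMDN2 (8046 bases in 5 members) and DUSP10 (7372 bases in 6 members) were made of members alone. The TLR4 domain was 77.4% member bases at rank 308 and the DMXL2 domain 91.2% at rank 272.

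Values near the limits of the rule were as follows. The median gap from a member to the nearest Kasumi-1 peak was 10821 bases, and 820 members (19.1%) had a Kasumi-1 peak within 1000 bases. At the limit itself, 125 members had a Kasumi-1 peak at most 100 bases away (median width 718 bases), and 167 peaks were left out for an overlap of at most 100 bases (688 bases). At the promoter limit, 48 members lay within 500 bases of a window, and 96 otherwise similar peaks were left out with at most 500 bases inside a window.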

How the data were processed

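H3K27ac CUT&Tag peak lists of 4 libraries, 1 per group, were used. The 2 IgG libraries were not analysed here. The authors aligned reads to hg38, removed PCR duplicates with Picard, merged replicates and called peaks. The methods text and the submitters' processing notes differ on the tools: the notes name Bowtie2 2.4.4 and MACS3 3.0, the methods other versions and MACS2. Whether IgG served as a control is not stated. The deposited files hold, per the file headers, chromosome, start, end and width of each peak in bases, counted from 1, with no score, height or read count, so the unit is a position and the depth is unknown. The smallest width was 289 and 275 bases in the MV4-11 lists and 357 and 354 in the Kasumi-1 lists, so the smallest width that could be called differed between libraries.

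Samples were grouped by GEO's labels. Genes and TSSs were from GENCODE 44, sequence from the hg38 reference. A peak's class and nearest gene were set by its centre. Motifs were searched as fixed letters on both strands in the central 600 bases. Shares have Wilson intervals, differences of shares Newcombe intervals, and differences at the members' GC, standardised over 5 GC quintiles of the windows, normal-approximation intervals. Python 3.11.15, pandas 2.3.3, numpy 2.4.6, scipy 1.17.1 and pysam 0.24.0 were used, and the functions were tested on simulated data. The members, the motifs and the 12 gene lists were chosen with earlier results of these data known. Named genes were the 25 with the most member bases, the listed genes with a member, the 10 widest members and the members at the limits of the rule. Printed 300-base sequences followed a rule on motif ratio and width, with chromosome 8 and exons left out. Alternatives changed the overlap, the distance to the other line, the promoter definition, the smallest width, the source list and the window. Totals over members matched 1 to 1 were added after the data were seen. No test between groups was made, since each has 1 library.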

Additional observations from a re-analysis of the deposited data

Results flagged for a closer look

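The AP-1 share of MV4-11-only distal peaks differed between peaks found in both libraries and peaks of the NC list alone, and the mirrored Kasumi-1 sets did not show this difference. It was 12.8 percentage points (95% interval 10.8 to 14.9) in MV4-11 and -1.49 points in Kasumi-1, with an interval from -4.49 to above 0. The MV4-11 difference exceeded the Kasumi-1 difference by 14.3 points (10.8 to 17.9, normal approximation over peaks). These differences were not matched for GC content or width. AP-1 was low in every Kasumi-1 set, at 17.9% of NC-alone peaks, 16.4% of peaks of both lists and 16.1% of sh-ANP32B-alone peaks. In the Kasumi-1-only peaks of both lists the ratio of central to outer AP-1 matches was 1.04, against 2.35 in the members. Each group has 1 library, so the interval does not cover variation between cultures, and library depth is unknown.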

How the results depend on the processing

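No paired analysis was possible because each group has 1 library. The number of members was 3161 to 4513 in the alternatives, except for 1261 with peaks of at least 1000 bases. The share of members narrower in sh-ANP32B was 68.3% with peaks of at least 1000 bases and 56.2% with coordinates from the sh-ANP32B list. Differences from the Kasumi-1-only set in GC content (-79.0 to -63.2 points), intronic share (2.90 to 7.97), MV4-11-only promoters (0.63 to 1.52), AP-1 (13.0 to 21.0) and C/EBP (14.3 to 21.9) kept their sign and an interval without 0 in every such alternative. Of 135 motif differences recomputed with other members or windows, 125 kept their direction and their side of 0. With peaks of at least 1000 bases, PU.1 was 1.76 points, STAT 2.92, MYB -1.73 and NF-kappaB -0.42. With no peak of the other line within 1000 bases, MEIS was -1.85 points and MYB -0.42. With a 1000-base window, MEIS was -1.79 and MYB -0.90, and with a 300-base window MYB was 1.53 and NF-kappaB 0.67. The differences that follow were added after the data were seen. Against Kasumi-1-only peaks at the members' GC, the E-protein E-box was 2.98 points, MYC-type E-box 1.12, MEIS 5.64, MYB 7.09, GABPA -0.0240, GATA 1.94, HOX-PBX 3.47 and IRF 1.02. Against common distal peaks at the members' GC, C/EBP was 1.15 points, E-protein E-box 1.77, GABPA -0.26, GATA 0.49, MEIS 0.34, MYB -0.13, MYC-type E-box -0.94, RUNX 0.62, STAT -0.52 and IRF -0.87. The AP-1 difference from NC-alone peaks was 8.65 to 14.5 points in its alternatives, all with intervals above 0, and the share beyond 100000 bases from a TSS exceeded that of the Kasumi-1-only set by 9.39 to 19.2 points. The causes of these shifts were not tested. Peak lists without heights give no depth, and a peak missing from a list may lie under the calling threshold.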
